A study of Rattus norvegicus with 16 samples.

Results

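Genes of the myosin light chains, and of the skeletal muscle kinase that phosphorylates one of them, were followed through dystrophic and wild-type rat muscle. The set was defined by 9 names: Myl1, Mylpf, Myl2, Myl3, Myl4, Myl6, Myl6b, Myl9 and Mylk2. Of these, 8 were the gene name of a row among the 31141 genes of the deposited table, and all 8 passed the filter on low values. No row was named Myl6b. A row named AC128207.1 is described in the table as myosin light chain 6B. It is given beside the others as the light chain 6B row and left out of the counts of members.

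The libraries were made from poly-A RNA of frozen tibialis anterior, a mainly fast muscle of the lower leg, in Wistar-Imamichi rats aged 9 months. DMD_KD was 6 libraries from rats labelled with the genotype Dmd that ate the diet MCTKD after weaning, an abbreviation the labels do not spell out. DMD_ND was 6 libraries from rats of the same genotype on normal diet (ND), and WT_ND was 4 libraries from wild-type rats on normal diet. None of the groups used here was wild type on MCTKD, so a diet effect could be measured in mutant muscle alone. The labels give neither the Dmd allele nor whether each library was a separate animal, so the p-values below reflect spread between the samples as labelled, part of which may be technical.

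Each myosin head carries one essential and one regulatory light chain wrapped around its lever arm. In fast skeletal fibres the essential chain comes from Myl1 and the regulatory chain from Mylpf, and in slow fibres and the heart's ventricle from Myl3 and Myl2. Myl4 encodes the essential chain of embryonic muscle and the adult atrium, and Myl6 that of smooth muscle and non-muscle myosin. Myl6b encodes an essential chain of slow skeletal muscle and non-muscle tissue, and Myl9 the smooth muscle regulatory chain. Mylk2 encodes the calcium-activated kinase that phosphorylates the regulatory chain of skeletal fibres and so tunes their force.

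Promoters of sarcomeric light chains are shown for Myl3, which was lower in mutant muscle, Myl4, which was higher, and Myl1 and Mylpf, which lay in between. Whether their sites bear on these differences was not tested. RefSeq windows of the build GRCr8, running 250 bases before to 50 bases after a gene's start, were found for Myl1 (2 windows, one for each of its start sites), Mylpf (listed as Myl11), Myl3, Myl4 and Myl6. Each is written along the gene's own strand. Capitals mark matches to the E-box CANNTG, to TATAAA on either strand, to the CArG box and to the MEF2 site, all searched on both strands, and no match overlapped another.
Myl3 (chr8:119616844-119617143, plus strand): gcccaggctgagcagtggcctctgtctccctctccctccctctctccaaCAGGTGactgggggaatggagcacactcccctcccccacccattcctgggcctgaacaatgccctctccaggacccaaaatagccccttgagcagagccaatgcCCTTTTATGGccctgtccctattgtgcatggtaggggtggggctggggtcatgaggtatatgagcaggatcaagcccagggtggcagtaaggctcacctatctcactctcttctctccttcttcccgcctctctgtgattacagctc
Myl4 (chr10:89975900-89976199, plus strand): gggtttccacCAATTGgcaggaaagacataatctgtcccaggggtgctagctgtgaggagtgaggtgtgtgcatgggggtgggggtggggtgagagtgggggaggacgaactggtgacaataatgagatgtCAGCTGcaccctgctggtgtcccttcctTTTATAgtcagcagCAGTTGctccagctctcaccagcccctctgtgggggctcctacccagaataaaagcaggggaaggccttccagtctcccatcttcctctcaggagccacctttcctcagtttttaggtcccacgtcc
Mylpf (chr1:191260039-191260338, plus strand): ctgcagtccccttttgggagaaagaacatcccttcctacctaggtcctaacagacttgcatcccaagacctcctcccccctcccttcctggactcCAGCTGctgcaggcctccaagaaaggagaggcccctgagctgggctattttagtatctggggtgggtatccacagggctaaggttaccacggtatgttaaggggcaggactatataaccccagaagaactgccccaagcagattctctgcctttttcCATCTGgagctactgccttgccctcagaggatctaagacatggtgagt
Myl1, window 1 (chr9:75897750-75898049, minus strand): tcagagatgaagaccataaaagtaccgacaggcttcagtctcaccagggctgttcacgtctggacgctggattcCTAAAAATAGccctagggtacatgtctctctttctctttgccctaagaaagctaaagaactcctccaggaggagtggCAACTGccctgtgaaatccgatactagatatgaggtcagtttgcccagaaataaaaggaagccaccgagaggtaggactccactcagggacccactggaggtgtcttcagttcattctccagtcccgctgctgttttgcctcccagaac
Myl1, window 2 (chr9:75907647-75907946, minus strand): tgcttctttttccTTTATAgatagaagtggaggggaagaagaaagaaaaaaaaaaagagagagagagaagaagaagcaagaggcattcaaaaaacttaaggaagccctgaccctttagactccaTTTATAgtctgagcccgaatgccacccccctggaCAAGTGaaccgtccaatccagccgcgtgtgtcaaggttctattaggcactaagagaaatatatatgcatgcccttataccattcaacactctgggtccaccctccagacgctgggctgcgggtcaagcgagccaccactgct

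The Myl3 window held one E-box, with its first base at -201 from the start, and a CArG box at -97. The Myl4 window held 3 E-boxes, at -240, -119 and -77, and a reversed TATAAA at -91. Mylpf had E-boxes at -155 and 3. Window 1 of Myl1 had an E-box at -99 and a MEF2 site at -176, and window 2 an E-box at -92 and reversed TATAAA matches at -237 and -126. No match was found in the Myl6 window, which is not shown. Among 33469 RefSeq windows of the same length, 72.1% held an E-box, 14.2% TATAAA, 1.64% a CArG box and 1.87% a MEF2 site. The deposited table has 1 value per gene, so the start sites of Myl1 were not measured apart.

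Reads assigned to genes numbered 17125084 to 28116085 a library, and the members held 1.66% to 4.26% of them. Levels are the deposited FPKM (fragments per kilobase of gene, scaled by library), which the authors' values show to be scaled by median-of-ratios size factors, 0.768 to 1.54 in DMD_KD, 0.971 to 1.34 in DMD_ND and 0.524 to 0.895 in WT_ND. In WT_ND, replicates 1 and 4 (size factors 0.524 and 0.658) were above replicates 3 and 9 (0.895 and 0.779) for 7 of the 8 members, all but Myl6, and the part of the scaling in this was not tested. DMD_KD replicate 3 stood apart, at -57.5 on a second principal component holding 13.5% of the variance. Dmd itself was at 1.36 ± 0.545 FPKM in DMD_KD, 1.76 ± 0.209 in DMD_ND and 7.32 ± 3.32 in WT_ND (SD, n = 6, 6 and 4). Of 8 skeletal muscle markers, 7 were lower in DMD_ND than in WT_ND and 1 did not pass, while rescaled to an equal total per library 1 was higher and 2 lower. They were abundant in every library: Acta1, the actin of skeletal fibres, averaged 23881, 15276 and 38395 FPKM in DMD_KD, DMD_ND and WT_ND.

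In muscle of dystrophic rats on normal diet against wild type, the light chain genes moved in opposite directions. Of the 8 members, 3 were higher in DMD_ND (Myl4, Myl6 and Myl9), 3 were lower (Myl2, Myl3 and Mylk2) and 2 did not pass the test (Myl1 and Mylpf). Calls were made at a Benjamini-Hochberg adjusted p under 0.05 over all 12119 tested genes, from limma on log2(FPKM + 1). Of those genes 31.5% were called higher and 34.3% lower, so the number of members called lies close to the background. The median log2 fold change was -0.33 over the members and -0.04 over all tested genes. In RNA of whole muscle, fewer cells of a type and less RNA per cell cannot be told apart.

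The fold changes depend on how libraries are scaled. When every library was given the same total (TPM), the median over all tested genes became 0.83 for DMD_ND against WT_ND, in place of -0.04. For DMD_KD against DMD_ND it became -0.24 in place of -0.01, and for DMD_KD against WT_ND 0.56 in place of -0.06. On that scale 5 members were higher and 2 lower in DMD_ND against WT_ND, Myl1 and Mylpf joining the higher ones and Myl2 no longer passing. Myl1 and Mylpf were called higher though they lay at -0.18 and -0.09 against the median gene. Counts and fold changes in TPM, in every paragraph, carry this shift of the median gene. The share of all genes called in TPM is not given beside the counts, so the counts are not read as particular to the genes counted. Ratios and shares of genes within a library do not depend on this scaling.

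Mylpf (ENSRNOG00000017645, chromosome 1, 181829743 to 181832545, plus strand, mRatBN7.2), the fast regulatory chain, had the highest level of the set in every group. Its lowest, median and highest values were 8248, 12673 and 30872 FPKM in DMD_KD and 8523, 10124 and 12417 FPKM in DMD_ND, and the WT_ND libraries had 16513, 10363, 17079 and 8614 FPKM. All 3 groups overlapped. DMD_ND was at a log2 fold change of -0.28 against WT_ND (SE 0.29, 95% interval -0.90 to 0.33, limma adjusted p = 0.408), which did not pass. In TPM it was 0.73 (adjusted p = 0.000283), which is -0.09 against the median gene.

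Myl1 (ENSRNOG00000013262, chromosome 9, 68437517 to 68458261, minus strand), the fast essential chain, came second. It had 3603, 5204 and 10622 FPKM (lowest, median, highest) in DMD_KD and 3436, 4328 and 4952 FPKM in DMD_ND, against 7101, 4078, 7387 and 4497 FPKM in WT_ND. Again the groups overlapped, and the log2 fold change of DMD_ND against WT_ND was -0.37 (SE 0.25, 95% interval -0.90 to 0.17, adjusted p = 0.211). In TPM it was 0.65 (adjusted p = 0.000115), or -0.18 against the median gene. The ratio of Mylpf to Myl1 per length averaged 2.49 ± 0.219 in DMD_KD, 2.40 ± 0.0951 in DMD_ND and 2.27 ± 0.261 in WT_ND, with all groups overlapping; single libraries ran from 1.92 (WT_ND replicate 9) to 2.91 (DMD_KD replicate 3).

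**Figure D1:**
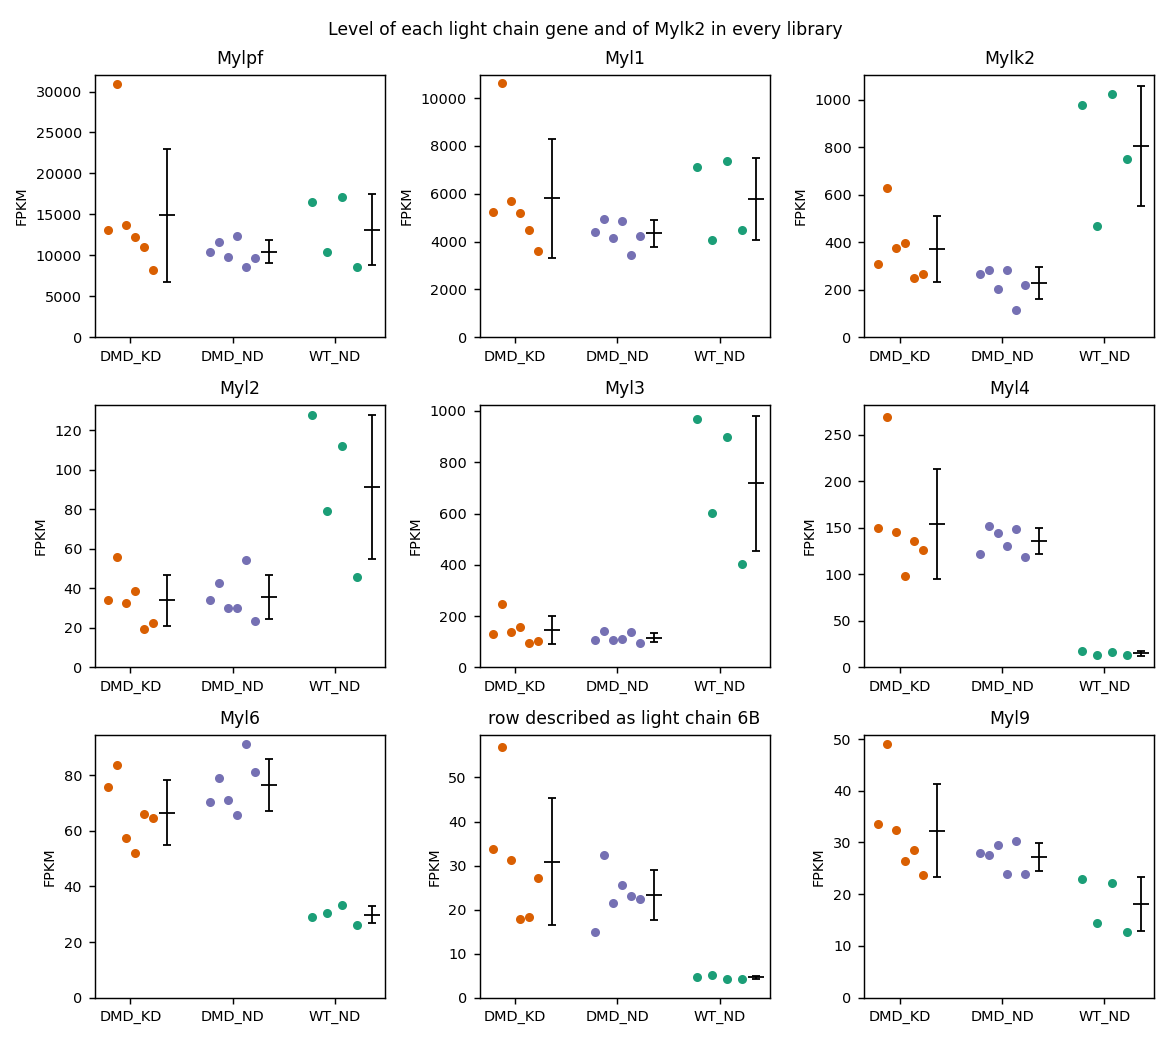
Level in FPKM (linear axes from 0, a different scale per panel) of the 8 members and of the light chain 6B row in DMD_KD (6 libraries), DMD_ND (6) and WT_ND (4); each point is a library, and the bar and whiskers beside a group are its mean ± SD. Myl4, Myl6, Myl9 and the 6B row sit higher in every mutant library than in every WT_ND library, Myl3 sits lower, and DMD_KD replicate 3 is the high point at 30872 FPKM of Mylpf.

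Other genes of the fast contractile apparatus were lower. Of 7 measured fast fibre markers, 7 were lower in DMD_ND than in WT_ND, with a median log2 fold change of -1.17; in TPM 2 were lower and the median was -0.15. Those with the smallest p were Mybpc2, a thick filament protein of fast fibres (-1.52, adjusted p = 0.000101), Actn3, the actinin of fast Z-discs (-1.79, adjusted p = 0.000199), and Tnnt3, fast troponin T (-1.16, adjusted p = 0.000216). Myh4, the fastest adult heavy chain and a binding partner of both fast light chains, was at -1.24 (SE 0.21, adjusted p = 7.29e-05) and at -0.23 in TPM. That TPM value is -1.05 against the median gene. Of the 11 heavy chain genes tested, 4 were higher, 4 lower and 3 did not pass, and in TPM 6 were higher and 1 lower. The FPKM counts lie close to the background of all tested genes, 31.5% higher and 34.3% lower.

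The fast light chains were therefore set against fast genes within each library, a description chosen after the values were seen. Mylpf per Tnni2, the fast troponin I, was 3.08 ± 0.155 in DMD_KD, 3.27 ± 0.189 in DMD_ND and 1.69 ± 0.112 in WT_ND (ratio of FPKM; SD, n = 6, 6 and 4). The mutant libraries lay between 2.94 and 3.50 and the WT_ND libraries between 1.58 and 1.85, so the ranges were apart. Mylpf per Myh4 was 5.01 ± 1.86 in DMD_KD, 4.76 ± 1.003 in DMD_ND and 2.47 ± 0.591 in WT_ND, with the lowest mutant library at 3.41 and the highest WT_ND library at 3.06. Myl1 per Myh4 was 1.98 ± 0.532 in DMD_KD, 1.98 ± 0.364 in DMD_ND and 1.08 ± 0.197 in WT_ND, and each mutant library, from 1.49 upward, was above each WT_ND library, up to 1.32.

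Myl3 (ENSRNOG00000020955, chromosome 8, 110738661 to 110744816, plus strand), the slow essential chain, was the light chain gene that fell most. It had 96.7, 134.4 and 248.0 FPKM (lowest, median, highest) in DMD_KD and 94.3, 109.6 and 140.4 FPKM in DMD_ND, against 967.7, 601.7, 897.1 and 404.8 FPKM in WT_ND. The lowest WT_ND library was above the highest library of either mutant group. DMD_ND against WT_ND was -2.55 on the log2 scale (SE 0.26, 95% interval -3.097 to -2.002, adjusted p = 2.47e-07). In TPM it was -1.54 (adjusted p = 1.44e-07).

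Myl2 (ENSRNOG00000030848, chromosome 12, 34454218 to 34468983, minus strand), the slow regulatory chain, fell less. Its values were 19.6, 33.3 and 55.6 FPKM in DMD_KD and 23.4, 32.1 and 54.5 FPKM in DMD_ND, against 127.6, 79.4, 112.2 and 46.0 FPKM in WT_ND. WT_ND replicate 9, at 46.0 FPKM, lay within the range of both mutant groups, and the other 3 WT_ND libraries lay above all mutant libraries. DMD_ND was at -1.28 (SE 0.30, 95% interval -1.92 to -0.64, adjusted p = 0.00132), and in TPM at -0.29, which did not pass (adjusted p = 0.261). That TPM value is -1.11 against the median gene.

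As a share of the fast and slow essential chains together, Myl3 made up 2.49 ± 0.317% in DMD_KD, 2.65 ± 0.634% in DMD_ND and 10.98 ± 1.999% in WT_ND (per length; SD, n = 6, 6 and 4). WT_ND ranged from 8.26% to 12.9% and no mutant library exceeded 3.88%. Myl2 made up 0.240 ± 0.0547%, 0.352 ± 0.147% and 0.678 ± 0.111% of the regulatory chains in DMD_KD, DMD_ND and WT_ND. Here DMD_ND replicate 9, at 0.635%, lay above the lowest WT_ND library, at 0.531%, and every other mutant library was at 0.363% or less.

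The slow pair thus did not keep its proportion. Myl3 per Myl2 was 4.35 ± 0.390 in DMD_KD, 3.38 ± 0.513 in DMD_ND and 7.99 ± 0.575 in WT_ND, and the highest mutant library, at 4.92, was below the lowest WT_ND library, at 7.58. Against Myh7, the slow heavy chain, Myl2 was at 0.610 ± 0.150, 0.564 ± 0.104 and 0.539 ± 0.114 in DMD_KD, DMD_ND and WT_ND, with overlapping groups. Myl3 per Myh7 was 2.64 ± 0.668 in DMD_KD, 1.89 ± 0.374 in DMD_ND and 4.29 ± 0.867 in WT_ND. Its WT_ND range, 3.22 to 5.24, overlapped that of DMD_KD, up to 3.96, and not that of DMD_ND, up to 2.46. These ratios too were chosen after the values were seen.

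Slow fibre genes did not move as one. Of 9 measured slow fibre markers, 4 were lower, 2 were higher and 3 did not pass in DMD_ND against WT_ND, with a median log2 fold change of -0.37; in TPM 6 were higher and none lower. Casq2, a calcium store protein of slow fibres and heart, had the smallest p and rose by 3.39 (adjusted p = 1.21e-11), Mybpc1, a slow thick filament protein, fell by 1.2003 (adjusted p = 2.88e-06), and Myh7 fell by 1.36 (adjusted p = 6.68e-05). Myh2, the heavy chain of fast oxidative fibres, was at -2.35 (adjusted p = 2.46e-09) and at -1.34 in TPM.

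**Figure D2:**
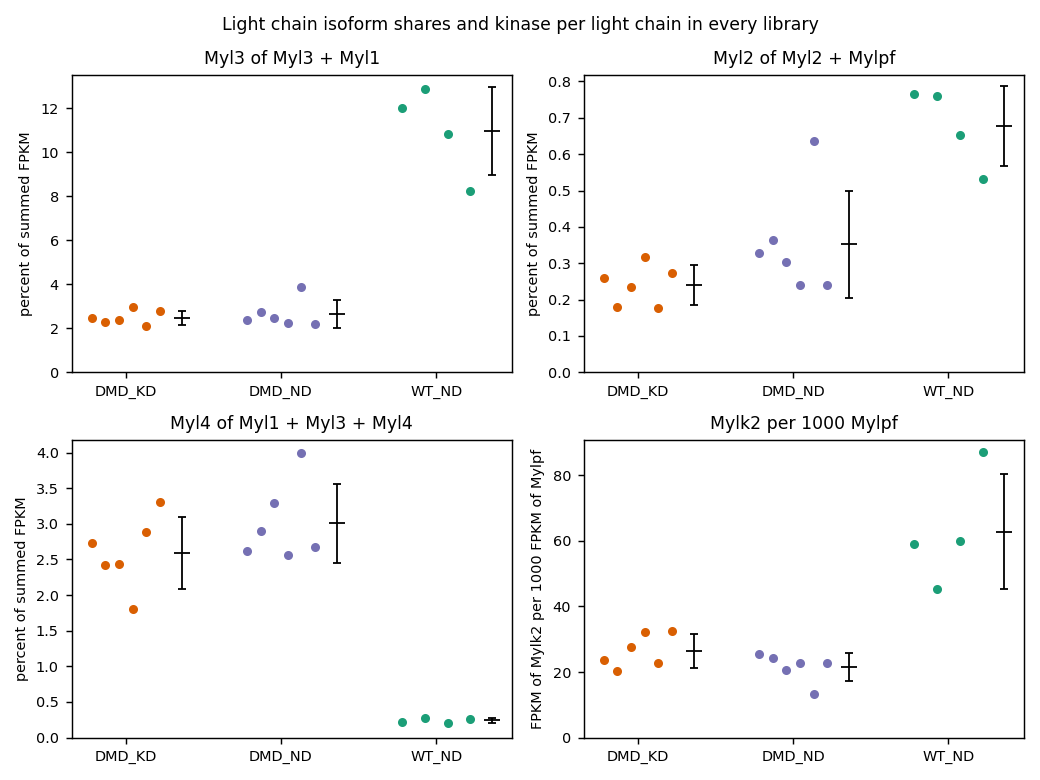
Isoform shares (percent of summed FPKM) and Mylk2 per 1000 FPKM of Mylpf, linear axes from 0, in DMD_KD, DMD_ND and WT_ND; each point is a library, and the bar and whiskers are the mean ± SD. The Myl3 share sits between 8.26% and 12.9% in WT_ND and at or under 3.88% in mutant libraries, the Myl4 share is under 0.279% in WT_ND and above 1.80% in mutant libraries, and DMD_ND replicate 9 is the high mutant point for Myl2 at 0.635%.

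Myl4 (ENSRNOG00000050675, chromosome 10, 89449443 to 89485363, plus strand), the embryonic and atrial essential chain, rose most. It had 98.3, 140.8 and 269.5 FPKM (lowest, median, highest) in DMD_KD and 119.0, 137.6 and 151.9 FPKM in DMD_ND, against 17.6, 13.1, 16.7 and 12.9 FPKM in WT_ND. Every mutant library lay above all WT_ND libraries. DMD_ND against WT_ND was 3.10 on the log2 scale (SE 0.20, 95% interval 2.67 to 3.52, adjusted p = 1.79e-09), and 4.12 in TPM. Cdc27, on the opposite strand, overlaps the first 294 bases of the gene as annotated, and since the sources used here do not give the strand setting, reads of that overlap are uncertain.

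Myl4 and Myl3 were at similar levels in mutant muscle, where Myl4 was higher and Myl3 lower than in WT_ND. Myl3 per Myl4 was 0.978 ± 0.317 in DMD_KD and 0.853 ± 0.0798 in DMD_ND, against 46.5 ± 10.8 in WT_ND. Myl4 was 2.59 ± 0.506% of the essential chains Myl1, Myl3 and Myl4 together in DMD_KD and 3.005 ± 0.551% in DMD_ND, against 0.240 ± 0.0365% in WT_ND. The lowest mutant library was at 1.81% and the highest WT_ND library at 0.279%.

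Markers of regenerating fibres were higher as well: 8 of 8 measured, with a median log2 fold change of 2.83 in DMD_ND against WT_ND. Those with the smallest p were Myh8, the perinatal heavy chain (2.95, adjusted p = 5.59e-11), Ncam1, a surface protein of regenerating and denervated fibres (2.78, adjusted p = 9.66e-11), and Mymk, which drives myoblast fusion (4.66, adjusted p = 2.86e-10). The summed level of the list was 275.2 to 648.6 FPKM in DMD_KD, 400.2 to 565.6 in DMD_ND and 69.9 to 112.9 in WT_ND. Myl4 per Myh8 was 3.84 ± 1.04 in DMD_KD, 3.48 ± 0.579 in DMD_ND and 3.59 ± 0.542 in WT_ND, so the groups overlapped. Per Myh3, the embryonic heavy chain, Myl4 was at 4.63 ± 1.48 in DMD_KD, 3.57 ± 0.599 in DMD_ND and 2.07 ± 0.268 in WT_ND. Both ratios were chosen after the values were seen. Of the atrial markers, Myl7 and Nppa were listed at 0 in every WT_ND library and reached at most 0.0609 and 0.258 FPKM in mutant libraries. Of that list 2 genes were tested, and Tnnt2, also a gene of regenerating fibres, was higher (2.88, adjusted p = 1.47e-09).

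Myl6 (ENSRNOG00000054140, chromosome 7, 910774 to 933791, minus strand), the essential chain of smooth and non-muscle myosin, had 52.0, 65.3 and 83.9 FPKM in DMD_KD and 65.9, 75.0 and 91.3 FPKM in DMD_ND, against 29.2, 30.6, 33.4 and 26.3 FPKM in WT_ND. No mutant library reached down to the wild-type range. DMD_ND against WT_ND was 1.32 (SE 0.14, 95% interval 1.04 to 1.61, adjusted p = 2.78e-07). The light chain 6B row (ENSRNOG00000028837, chromosome 7, 914081 to 917294, minus strand) had 17.8, 29.1 and 57.0 FPKM in DMD_KD and 14.97, 22.7 and 32.5 FPKM in DMD_ND, against 4.72, 5.11, 4.32 and 4.12 FPKM in WT_ND. Its groups also stood apart, at 2.10 (SE 0.25, 95% interval 1.56 to 2.63, adjusted p = 1.78e-06). The deposited coordinates of Myl6 span the whole 6B row on the same strand, 3214 bases, and 4944 bases of Esyt1, so the split of reads between these genes is uncertain. The ratio of the 6B row to Myl6 was 0.452 ± 0.144 in DMD_KD, 0.307 ± 0.0777 in DMD_ND and 0.154 ± 0.0169 in WT_ND.

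Myl9 (ENSRNOG00000020246, chromosome 3, 145281937 to 145288333, plus strand), the smooth muscle regulatory chain, rose as well. Its values were 23.7, 30.5 and 49.0 FPKM in DMD_KD and 23.9, 27.8 and 30.2 FPKM in DMD_ND, against 22.9, 14.4, 22.2 and 12.7 FPKM in WT_ND. The groups did not overlap, though the gap to WT_ND replicate 1 was small. DMD_ND against WT_ND was 0.60 (SE 0.19, 95% interval 0.206 to 0.997, adjusted p = 0.00944), and 1.60 in TPM.

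Markers of other cells moved beside these 3 genes. Of 9 smooth muscle markers, 5 were higher and 2 lower in DMD_ND against WT_ND, with a median of 0.61. Lmod1 (-1.79, adjusted p = 2.78e-07) and Synpo2 (-1.55, adjusted p = 4.89e-07), both also expressed in striated muscle, and Acta2, smooth muscle actin (1.45, adjusted p = 8.97e-06), had the smallest p. The summed level of this list, which includes the abundant Des of all muscle, was 1423 to 3478 FPKM in DMD_KD, 1295 to 1726 in DMD_ND and 1421 to 2831 in WT_ND. All 8 fibroblast markers were higher, led by Col1a1 (4.32, adjusted p = 5.30e-11), and their sum was 1234 to 1831 FPKM in DMD_KD, 1616 to 2549 in DMD_ND and 97.5 to 240.9 in WT_ND. All 8 macrophage markers were higher, led by Tyrobp (3.27, adjusted p = 1.16e-09), with sums of 336.0 to 552.0, 369.6 to 775.7 and 22.3 to 56.4 FPKM in the same order of groups. Endothelial markers were 1 higher and 2 lower of 7, and pericyte markers 2 higher and 1 lower of 6; in TPM endothelial markers were 5 higher and none lower, and pericyte markers 4 higher and 1 lower. Smooth muscle markers were 7 higher and 2 lower in TPM. The part of these cells, or of muscle fibres, in the levels of Myl6, Myl9 and the 6B row was not tested.

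**Figure D3:**
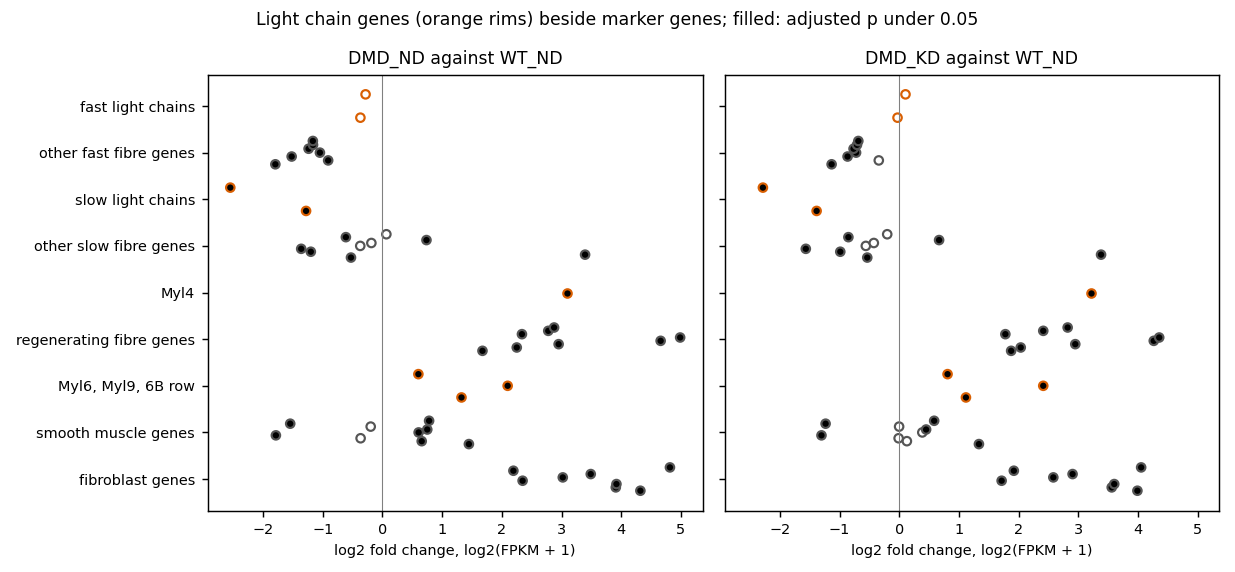
Log2 fold change, on the log2(FPKM + 1) scale, of light chain genes (orange rims) and of marker genes of the cell types named at the left, in DMD_ND against WT_ND and DMD_KD against WT_ND; each point is a gene and filled points have an adjusted p under 0.05. The fast light chains lie near 0 while other fast fibre genes lie below it, with a median of -1.17 in DMD_ND against WT_ND. In TPM the fast light chains are at 0.65 and 0.73 and that median is -0.15, where the median of all tested genes is 0.83.

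Mylk2 (ENSRNOG00000008235, chromosome 3, 141376691 to 141387728, plus strand), the skeletal muscle kinase of the regulatory chain, had 250.8, 343.2 and 626.6 FPKM (lowest, median, highest) in DMD_KD and 113.8, 243.1 and 284.4 FPKM in DMD_ND, against 977.6, 469.4, 1022.1 and 750.8 FPKM in WT_ND. All DMD_ND libraries lay below all WT_ND libraries. DMD_KD replicate 3, at 626.6 FPKM, lay above WT_ND replicate 3. DMD_ND against WT_ND was -1.81 (SE 0.29, 95% interval -2.43 to -1.19, adjusted p = 4.07e-05), and -0.80 in TPM (adjusted p = 0.00245). That TPM value is -1.63 against the median gene.

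The transcript level of the kinase was also lower per level of Mylpf, the gene of its substrate. For 1000 FPKM of Mylpf there were 26.5 ± 5.14 FPKM of Mylk2 in DMD_KD and 21.5 ± 4.34 in DMD_ND, against 62.9 ± 17.5 in WT_ND. The highest mutant library, at 32.5, was below the lowest WT_ND library, at 45.3. Mylpf per Tnni2 was higher in mutant muscle, at 3.08 in DMD_KD and 3.27 in DMD_ND against 1.69 in WT_ND. In DMD_ND against WT_ND Tnni2 was at -1.24, while Mylpf was at -0.28 and did not pass. Against the median gene in TPM, Mylpf was at -0.09 and Mylk2 at -1.63. The kinase ratio depends on the levels of both genes, and protein was not measured.

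Around these members, a list of 26 names of other light chains, their kinases and phosphatases gave 20 tested genes. In DMD_ND against WT_ND 7 were higher, 6 lower and 7 did not pass, with a median log2 fold change of -0.01. Of all tested genes 31.5% were called higher and 34.3% lower, so these counts lie close to the background. In TPM 13 were higher and only Mylk4 lower. The direction of the other lower genes thus rests on the scaling.

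Mylk4, a kinase of the same family whose row is named RGD1565323 and identified by its description, fell furthest. It averaged 55.7 ± 19.4 FPKM in DMD_KD and 26.6 ± 12.1 in DMD_ND, against 264.8 ± 131 in WT_ND, at -3.32 for DMD_ND against WT_ND (SE 0.42, adjusted p = 2.86e-06) and -2.35 in TPM. Among the other lower genes were Ppp1cb, the catalytic subunit of myosin phosphatase (-0.70), Ppp1r12b, the striated muscle targeting subunit (-0.80), and Rock2, a kinase that inhibits that phosphatase (-0.49). In TPM these 3 were at 0.30, 0.16 and 0.44, or -0.52, -0.66 and -0.38 against the median gene.

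Of the higher genes, Ppp1r14c, an inhibitor of protein phosphatase 1, changed most: it averaged 10.9 ± 3.91 FPKM in DMD_KD and 16.3 ± 3.20 in DMD_ND, against 1.06 ± 0.826 in WT_ND (3.13, SE 0.25, adjusted p = 1.40e-08). Myl12a, a non-muscle regulatory chain, was at 181.1 ± 30.6, 215.2 ± 43.9 and 110.8 ± 27.7 FPKM in DMD_KD, DMD_ND and WT_ND (0.96, adjusted p = 0.00018). A muscle gene on the opposite strand overlaps 638 bases of Myl12a as annotated, so reads of that overlap are uncertain. Mylk, the smooth muscle kinase, was low, at 3.35 ± 0.635, 4.39 ± 1.08 and 2.19 ± 0.485 FPKM (0.75, adjusted p = 0.0004). Mylip, a ligase that binds the regulatory chain (0.82), Rhoa (0.56), Ppp1r12c (0.47) and Ppp1r14a (0.52, adjusted p = 0.0498) made up the rest. Myl7 and the cardiac kinase Mylk3 were near 0 in all groups and were not tested.

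The comparison DMD_KD against DMD_ND asked what the diet changed in mutant muscle. None of the 8 members passed the test, nor did the light chain 6B row, and 1 of 12119 genes was called (0.00825%). At an unadjusted p under 0.05, limma gave 1727 genes, of which Mylk2 was the only member. Mylk2 was at 0.69 (SE 0.26, 95% interval 0.14 to 1.25, unadjusted p = 0.0176, adjusted p = 0.265), averaging 371.1 ± 138 FPKM in DMD_KD and 228.2 ± 65.4 in DMD_ND. Of the 6 DMD_KD libraries, 4 were above the highest DMD_ND library, and the other 2 lay within the DMD_ND range. Without DMD_KD replicate 3 the difference was 0.53 (adjusted p = 0.421) and the DMD_KD mean 320.0 ± 64.4 FPKM. Per 1000 FPKM of Mylpf the groups overlapped.

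For the other members the diet intervals were as follows. Mylpf was at 0.39 (95% interval -0.16 to 0.94, adjusted p = 0.467) and Myl1 at 0.34 (-0.14 to 0.82, adjusted p = 0.462). Both were led by DMD_KD replicate 3, without which they were at 0.15 and 0.15. Myl3 was at 0.27 (-0.22 to 0.76), Myl2 at -0.10 (-0.68 to 0.47), Myl4 at 0.11 (-0.27 to 0.50), Myl6 at -0.21 (-0.46 to 0.05), Myl9 at 0.21 (-0.15 to 0.56) and the 6B row at 0.32 (-0.17 to 0.80), with adjusted p from 0.422 to 0.873. These intervals leave room for changes in either direction. Without DMD_KD replicate 3 Myl4 was at -0.06. In TPM Myl3, Myl4 and Myl9 were at -0.0027, -0.15 and -0.05, or 0.24, 0.09 and 0.19 against the median gene. The member median was 0.24 in FPKM and -0.03 in TPM, where the medians of all tested genes were -0.01 and -0.24. None of the 20 tested genes of the wider list passed either, Mylk4 being at 1.16 (SE 0.38, adjusted p = 0.232).

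**Figure D4:**
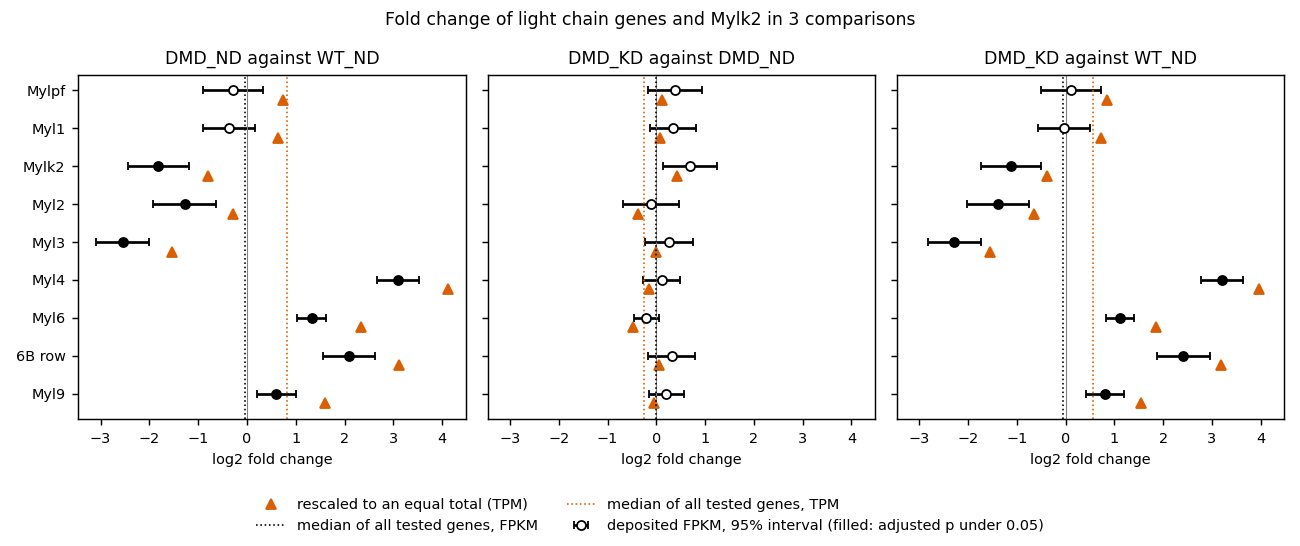
Log2 fold change on the log2(FPKM + 1) scale of each member and of the light chain 6B row in the 3 comparisons of DMD_KD, DMD_ND and WT_ND; circles are deposited FPKM with 95% intervals (filled, adjusted p under 0.05), triangles the same after rescaling to an equal total (TPM), and dotted lines the median of all tested genes on each scale. Myl3 lies left and Myl4 right of both medians in both comparisons with WT_ND, Myl1 and Mylpf change sign between scales in DMD_ND against WT_ND, and no member passes in DMD_KD against DMD_ND.

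DMD_KD against WT_ND shares its libraries with the other comparisons, so its values are set beside theirs. Of the 8 members 3 were higher and 3 lower, and 2 did not pass, where 27.3% of all tested genes were called higher and 31.1% lower. The members' median was 0.04 and that of all tested genes -0.06. Myl4 was at 3.21 (adjusted p = 2.07e-09), Myl6 at 1.12 (adjusted p = 2.996e-06) and Myl9 at 0.81 (adjusted p = 0.00142). Myl3 was at -2.28 (adjusted p = 1.38e-06), Myl2 at -1.38 (adjusted p = 0.000901) and Mylk2 at -1.12 (adjusted p = 0.00361). In TPM Mylk2 was at -0.38 (adjusted p = 0.125), which is -0.94 against the median gene. Mylpf, at 0.11, and Myl1, at -0.03, did not pass, and in TPM they were at 0.85 and 0.72, or 0.29 and 0.16 against the median gene. The 6B row was at 2.41 (adjusted p = 5.95e-07). Without DMD_KD replicate 3 the same number of members, 6, was called. Of the wider list 6 were higher, 6 lower and 8 not called, and in TPM 10 were higher and 1 lower. Regenerating fibre markers were higher for 8 of 8, fast fibre markers lower for 6 of 7, slow fibre markers higher for 2 and lower for 4 of 9, and smooth muscle markers higher for 3 and lower for 2 of 9. In TPM regenerating fibre markers were again 8 higher, none of the fast fibre markers passed in either direction, slow fibre markers were 3 higher and 1 lower, and smooth muscle markers 6 higher and 2 lower.

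The order of levels per length shows the same shift. In WT_ND it ran Mylpf, Myl1, Mylk2, Myl3, Myl2, Myl6, Myl9, Myl4 and the 6B row, and of neighbours in that order Mylk2 and Myl3, and Myl9 and Myl4, had overlapping ranges. In both mutant groups it ran Mylpf, Myl1, Mylk2, Myl4, Myl3, Myl6, Myl2, Myl9 and the 6B row. There Mylk2, Myl4 and Myl3 overlapped from neighbour to neighbour, as did Myl2, Myl9 and the 6B row, and in DMD_KD also Mylpf with Myl1 and Myl6 with Myl2. Mylpf, Myl1 and Mylk2 held the first 3 places in each group, and Myl4 stood above Myl3 in the means of both mutant groups and below it in WT_ND.

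Within groups, the members followed different genes. Likeness was taken as Pearson's r of deviations from group means over the 16 libraries, among 5845 named genes averaging at least 5 FPKM. Libraries share their scaling and depth, and r is given as a description. Mylpf was most like Tnni2 (0.987), Glrx5, a mitochondrial glutaredoxin (0.987), and Ndufs7, a complex I subunit (0.985). Mylpf and Tnni2 thus kept step from library to library while their ratio differed between mutant and wild-type muscle. Myl1 was most like Hras (0.994), Rpl3l, the ribosomal protein of striated muscle (0.994), and Eef1a2, the muscle elongation factor (0.993).

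The slow chains were close to each other: Myl2 was most like Myl3 (0.958), Ldhb, the lactate dehydrogenase subunit of oxidative fibres (0.935), and Tnnc1, the slow troponin C (0.933). For Myl3 the order was Mgst3 (0.965), Ldhb (0.960) and Myl2 (0.958). Mylk2 was most like Rabgef1 (0.969), Mybpc2 (0.960) and Actn3 (0.956). Myl9 was most like Pcif1 (0.978), Dhrs7b (0.977) and Rpl12 (0.964), none of them in the smooth muscle list. Myl6 was most like Rilpl2 (0.912), Pea15 (0.891) and Tmsb10 (0.889).

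Myl4 was most like Cdkn1c, a cell cycle inhibitor (0.942), AABR07038019.1 (0.923) and H2az2, a histone variant (0.922). These rested in part on DMD_KD replicate 3, without which they were 0.867, 0.778 and 0.769 and the nearest gene was Serpine2 (0.908). The 6B row was most like Ier3 (0.842), Hsd17b11 (0.825) and Pdlim4 (0.803), which were 0.706, 0.675 and 0.638 without that library.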

How the data were processed

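RNA of 16 tibialis anterior libraries was sequenced. Per the submitters' processing notes, the tools were HISAT2 2.0.5 with featureCounts 1.5.0-p3, and the build was mRatBN7.2. The sources used here give no annotation release, strand setting or treatment of multiply matching reads, and values of close gene copies or overlapping genes are uncertain. The authors deposited FPKM for 31141 genes. Multiplied by gene length, 100% of values were whole multiples of 1 read (within 0.05), and their library scale was the median-of-ratios size factor, so they are already scaled between libraries.

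Columns were matched to samples by title and to groups by genotype and diet. The 12119 genes reaching 1 FPKM in 4 or more libraries were tested by limma 3.58.1 (R 4.3.3) on log2(FPKM + 1), with one model of group means for all 16 libraries (13 residual degrees of freedom), trend and robust options, and Benjamini-Hochberg adjustment over all tested genes. The scale understates changes of low genes. The script was tested on simulated data with known changes.

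The members, marker lists and the list of other light chain genes were chosen with earlier results of these data known. The genes named are the members, called genes of the light chain list (some are not reported here), up to 3 called genes of smallest p per marker list, the 3 genes most like each member, and genes that overlap a member. Dmd, Acta1, Des, Myl7, Nppa, Mylk3 and the partner genes of the ratios fall outside that rule and were chosen after their values were seen. The rows of Myl6b and Mylk4 were identified by their deposited descriptions. Other settings tried were a pseudocount of 0.1, other filters on low values, TPM, library weights, only the 2 groups compared, the replicate block and leaving out each library. Promoters are RefSeq's (GRCr8).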

Additional observations from a re-analysis of the deposited data

Results flagged for a closer look

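Over 54 groups of values, made of each gene or ratio in each group of libraries, a library far from the rest of its group was looked for by Dixon's test, which by chance marks about 5% of groups. It marked 7. DMD_KD replicate 3 was the high library for Myl1, at 10622 FPKM against 3603 to 5694 FPKM in the rest of its group. The same library was high for Mylpf, at 30872 FPKM against 8248 to 13707 in the others, and for Myl4, at 269.5 FPKM against 98.3 to 150.0. Its ratio of Mylpf to Myl1 was 2.91, where the others were at 2.29 to 2.51. DMD_KD replicate 7 had a ratio of Myl3 to Myl4 of 1.60, against 0.710 to 0.948 in the other DMD_KD libraries. In DMD_ND replicate 9 the slow share of essential chains was 3.88%, against 2.18% to 2.76%, and the slow share of regulatory chains 0.635%, against 0.240% to 0.363%. That library also had the lowest Mylk2 of its group, at 113.8 FPKM.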

How the results depend on the processing

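The count of members called was 6, 0 and 6 for DMD_ND against WT_ND, for DMD_KD against DMD_ND and for DMD_KD against WT_ND, and stayed at these values when any 1 library was left out. Of the members' fold changes recomputed, 131 of 136, 145 of 152 and 124 of 136 kept their direction and side of the threshold. All-gene counts were 7413 to 7868, 1 to 7 and 6351 to 7731 with 1 library left out, 4361 and 3950 (both comparisons with WT_ND) with a mean of at least 5 FPKM, and in DMD_KD against DMD_ND 2 with only those groups fitted and 93 with library weights. Rescaled to TPM, Myl1 was at 0.65 and Mylpf at 0.73 in DMD_ND against WT_ND, Myl3 at -0.0027, Myl4 at -0.15 and Myl9 at -0.0548 in DMD_KD against DMD_ND, and Myl1 at 0.72 in DMD_KD against WT_ND. Library weights put Mylpf at 0.0745, Myl4 at -0.0486 and Myl1 at 0.056 in these comparisons, in that order. With 1 library left out, DMD_KD against DMD_ND ranged from -0.0601 to 0.23 for Myl4 and -0.26 to 0.0313 for Myl2, and DMD_KD against WT_ND from -0.22 to 0.11 for Myl1 and -0.13 to 0.25 for Mylpf. Counted in reads, not per length, the Myl2 share of regulatory chains was 0.686%, 1.001% and 1.92% in DMD_KD, DMD_ND and WT_ND, since the Myl2 gene is longer. For the other changes the cause was not tested.

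Whether replicate numbers shared between groups pair the libraries could not be decided. Same-numbered libraries correlated, in deviations from group means, between -0.656 and 0.407. They were few, and differently numbered libraries were not set beside them. With the replicate block, 5, 0 and 5 members were called and 0 genes in DMD_KD against DMD_ND. Under it Myl2 was at -0.81 in DMD_ND against WT_ND (adjusted p = 0.136), and in DMD_KD against WT_ND Mylk2 was at -1.04 (adjusted p = 0.0583) and Myl1 at 0.23.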
